A study of Homo sapiens with 15 samples.

Results

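The genes described here are the glucocorticoid receptor gene NR3C1, the cortisol-producing enzyme gene HSD11B1 and 6 genes that are known targets of the receptor, SGK1, TSC22D3, FKBP5, PER1, KLF9 and ZBTB16. They were selected by name from the gene symbols of the expression tables, with earlier results of these libraries known. Their values, and the calls made for them below, are thus a description and no independent test. All 8 were found among the 20468 genes of each table. Multiple myeloma (MM) cells of 2 established human lines, MM.1S and RPMI8226, were grown either alone or in transwell wells together with HS5 cells, an established human bone marrow stromal line. MONO is the monoculture, TSW the MM cells of the upper transwell, which share medium with HS5 cells through a membrane, and CO the MM cells of the lower chamber, which lie on the HS5 cells. MM.1S had 3 replicates and RPMI8226 had 2 in each condition, and sorting for live cells with CD38 and without CD90 (THY1) preceded RNA-Seq. The paper describes a PBS wash and trypsin for the coculture conditions and not for MONO. This handling and coculture thus cannot be told apart in comparisons with MONO. All groups shared a growth medium with fetal bovine serum, and no steroid treatment of any group is named. The comparisons ask what stroma does through soluble factors (TSW vs MONO), through factors and contact (CO vs MONO), and what contact adds (CO vs TSW).

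Glucocorticoids such as cortisol cross the cell membrane and bind the receptor, which is held ready by HSP90 and its partner proteins. The bound receptor enters the nucleus, binds glucocorticoid response elements in DNA and turns genes on, while it turns down many inflammatory genes through other transcription factors. HSD11B1 converts inactive cortisone to active cortisol inside cells, HSD11B2 does the reverse, and synthetic glucocorticoids such as dexamethasone are a mainstay of myeloma treatment.

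Expression is given as RPKM, the read pairs on a gene scaled by transcript length and library depth. The spacing of the values gives back whole read pairs and the depth of each library, which went from 9008977 in MM.1S MONO 1 to 19050771 in MM.1S MONO 2. At these depths 1 pair on a transcript of 2 kb was worth an RPKM between 0.0262 and 0.0555, and all limits from pairs cover counting error only. Fold changes are differences of mean log2(RPKM + 1), which understates the change of genes near 0. They come from limma, a linear model fitted to the genes whose mean RPKM over a line reached 1, namely 10153 of MM.1S and 10319 of RPMI8226. Genes were called higher or lower when they changed by more than 1.5-fold with a p below 0.05 after Benjamini-Hochberg adjustment. Nothing says that replicates were separate cultures, so p-values measure the spread between these samples, which may be technical. The tables of the 2 lines were normalized separately, so levels are set side by side across lines without a test.

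Some libraries stood apart. MM.1S MONO 1, the shallowest, differed from the mean of the other MONO replicates by a root mean square of 0.415 on the log2 scale over the tested genes. MONO 2 and MONO 3 differed by 0.284 and 0.285, while MM.1S TSW and CO libraries differed from theirs by 0.125 to 0.193. The pseudogene RPS14P3 had an RPKM of 84.3 in MM.1S MONO 2 and of 94.8 and 93.6 in RPMI8226 TSW, against 2.20 to 6.44 in the other libraries. In the same 3 libraries the mitochondrial tRNA gene trnN was at 1.44, 2.22 and 1.53, against 82.3 to 587 elsewhere. Both RPMI8226 TSW libraries had this pattern, so within TSW of that line the pattern and the condition cannot be told apart.

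Stromal RNA was present in CO. Of 40 stromal marker genes, a list that also holds genes MM cells express, 36 to 38 had a pair in CO and 18 to 24 in MONO and TSW. Their summed RPKM was 20.9, 24.0 and 24.7 in MM.1S MONO, 12.6, 14.2 and 13.7 in TSW, and 196.4, 210.8 and 180.0 in CO, where MMP1, a secreted collagenase, was the most abundant at 41.0 to 46.9. In RPMI8226 the sum was set by FN1 (fibronectin), at 3990 and 4310 in MONO, 1678 and 1962 in TSW, and 2007 and 2169 in CO. The other 39 markers summed to 26.5 and 26.8 in MONO, 44.4 and 45.9 in TSW, and 177.4 and 250.8 in CO of RPMI8226. Of 12 defining markers, such as collagens, LUM, DCN and FAP, only POSTN was at 0 in every CO library, whereas 8 to 10 were at 0 in each MONO and TSW library. The highest defining marker in any TSW library was at 0.160, so these markers were at or near 0 in TSW. The part of stromal RNA in the CO values below was not tested. In such bulk samples, fewer cells of a type and less RNA per cell cannot be told apart.

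**Figure D1:**
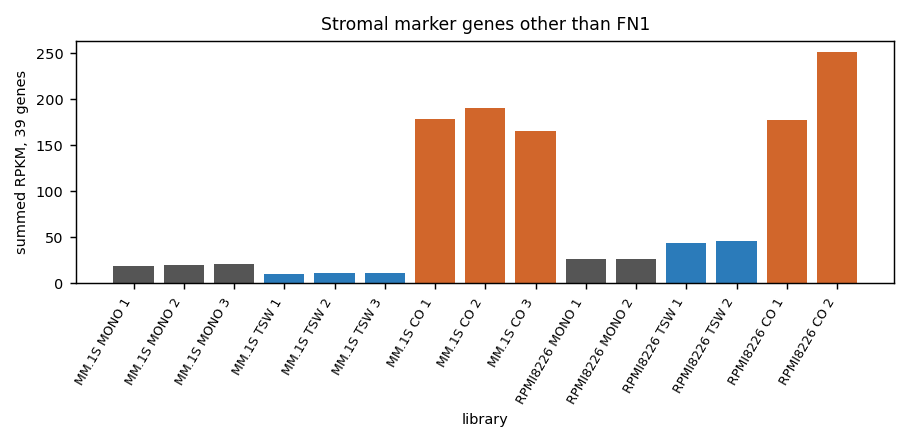
Summed RPKM (vertical axis) of the 39 stromal marker genes other than FN1 in each of the 15 libraries (horizontal axis), with bars for MONO in grey, TSW in blue and CO in orange. The CO libraries reached 165.6 to 250.8, and the others stayed at or below 45.9.

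The receptor gene NR3C1 (chr5:143277931-143435512; positions of the 8 genes are from RefSeq on GRCh38.p14) was expressed in every library. In MM.1S its RPKM was 8.40, 16.2 and 16.1 in MONO, 13.2, 12.5 and 13.3 in TSW, and 12.6, 12.5 and 13.1 in CO. In RPMI8226 it was 15.6 and 15.7 in MONO, 14.7 and 11.7 in TSW, and 14.96 and 15.8 in CO. The low value of MM.1S was that of MONO 1, and its MONO values enclosed all values of TSW and CO. In RPMI8226 both TSW values lay below MONO and CO, which overlapped. On the log2(RPKM + 1) scale the fold changes were -0.00 ± 0.19 (SE) in TSW and -0.03 ± 0.19 in CO of MM.1S, and -0.24 ± 0.10 and -0.02 ± 0.10 in RPMI8226, none of them called. The sign in MM.1S depended on the MONO library left out, with -0.29 and -0.32 without MONO 1, 0.14 and 0.12 without MONO 2, and 0.14 and 0.11 without MONO 3, none of them called. Without MONO 1 the limma adjusted p was 0.00847 in TSW and 0.00522 in CO, so only the fold threshold kept these values from a call. In RPMI8226 TSW the log2 fold change was -0.39 without TSW 1 and -0.09 without TSW 2, also not called. With voom it was -0.26 (voom adjusted p = 0.0316), likewise under the fold threshold. Levels of the closely related mineralocorticoid receptor gene NR3C2 were lower, with a mean RPKM of 1.17 to 1.49 in the conditions of MM.1S and 0.110 to 0.154 in those of RPMI8226.

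Genes of the machinery around the receptor are chaperones and coregulators. Of 26 tested in RPMI8226, 12 were lower and 0 higher in TSW than in MONO, where 17.9% and 14.5% of all tested genes were. In CO 11 were lower and 1 (NCOA3) higher, beside 22.9% and 16.4% of all. The 0 is from limma, 3 of the 26 were higher at an unadjusted p under 0.05, and voom called 1. The median log2 fold change was -0.26 in TSW and -0.46 in CO, beside -0.08 and -0.09 over all tested genes. With other scalings between libraries, 10 were lower in TSW and 8 or 9 in CO. HSP90AA1, the inducible HSP90 that holds the receptor in its binding-ready form, fell from an RPKM of 1031 and 982.5 in MONO to 194.7 and 199 in TSW and 188.5 and 192.8 in CO. Its log2 fold changes were -2.35 ± 0.06 (limma adjusted p = 1.13e-09) and -2.39 ± 0.06 (adjusted p = 7.76e-10). FKBP4, an immunophilin that helps move the receptor to the nucleus, fell from 49.2 and 47.7 to 13.9 and 17.3 in TSW and 12.0 and 12.9 in CO. The log2 fold changes of FKBP4 were -1.58 ± 0.10 and -1.88 ± 0.10. HSP90AB1, the constitutive HSP90, fell by 1.03 and 1.30, HSPA8 by 1.25 and 1.65, and AHSA1, which activates the HSP90 ATPase, by 1.06 and 1.60. HSP90 and HSPA8 genes have pseudogene copies, and reads shared with such copies were not separated here.

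In MM.1S, 2 of 27 machinery genes were called in each comparison with MONO, the coactivator NCOA2 as higher and HSPA8 as lower, with a median of -0.00 in TSW and -0.06 in CO beside 0.01 and 0.01 over all tested genes. Of all tested genes, 6.48% were higher and 4.16% lower in TSW and 7.13% and 4.65% in CO of MM.1S. HSPA8 fell by 0.87 ± 0.12 in TSW and 0.81 ± 0.12 in CO, the latter not called with quantile normalization (-0.55). NCOA2 had log2 fold changes of 0.75 ± 0.25 (limma adjusted p = 0.0499) and 0.79 ± 0.25 (adjusted p = 0.0366), and neither call was made without MONO 1, where the values were 0.35 and 0.40. Both calls were also lost when any single TSW or CO library was left out, with values between 0.73 and 0.83. FKBP4 was not called, with a MONO mean of 108.5 ± 22.4 (SD, n = 3), a TSW mean of 117.8 ± 6.90 and a CO mean of 115.2 ± 8.84. The corepressor gene NCOR1 was not called in either line, with log2 fold changes between 0.11 and 0.15.

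The enzyme gene HSD11B1 (chr1:209686179-209734929) had no pair in either RPMI8226 MONO library. In RPMI8226 TSW its RPKM was 63.1 and 57.2, from 1832 and 1605 pairs. The CO libraries had 91.7 and 81.1, from 2344 and 2387 pairs. Against a floor of 3 pairs, averaged over the MONO libraries, HSD11B1 was thus at least 425-fold higher in TSW and at least 611-fold higher in CO, with no overlap between conditions. Its log2 fold changes were 5.93 ± 0.09 and 6.45 ± 0.09, both called higher, and depend on the pseudocount because MONO was at 0. The gene passed the expression filter through TSW and CO alone, so these calls are partly set by the filter and nothing is read from them. An lncRNA gene, HSD11B1-AS1, is annotated within the HSD11B1 interval in RefSeq, whether pairs were counted by strand is not given in the sources used here, and pairs of the 2 genes cannot be told apart.

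In MM.1S, HSD11B1 stayed low. Its RPKM was 0.213, 0.101 and 0.0481 in MONO (3, 3 and 1 pairs), 0.672, 0.546 and 0.535 in TSW (15, 13 and 11 pairs), and 0.992, 1.42 and 0.370 in CO (25, 34 and 8 pairs). Every TSW and CO library lay above every MONO library, and the values of TSW and CO overlapped. The ratio of summed pairs at equal depth was 5.41 for TSW over MONO (95% exact interval 2.39 to 14.3) and 8.74 for CO over MONO (4.02 to 22.6). With a mean RPKM under 1 in the line, the gene was not among those tested in MM.1S.

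Among the other genes that act on cortisol, HSD11B2 and H6PD also differed in RPMI8226. H6PD, which supplies the NADPH that HSD11B1 needs for cortisol production in the endoplasmic reticulum, rose from an RPKM of 7.96 and 8.58 in MONO to 21.0 and 22.1 in TSW and 24.0 and 25.0 in CO. The log2 fold changes of H6PD were 1.28 ± 0.08 (limma adjusted p = 3.11e-07) and 1.46 ± 0.08 (adjusted p = 8.71e-08). HSD11B2, the cortisol-inactivating enzyme, fell from 7.57 and 8.86 to 1.78 and 2.19 in TSW and 1.37 and 0.989 in CO. Its log2 fold changes were -1.63 ± 0.13 (limma adjusted p = 1.51e-06) and -2.08 ± 0.13 (adjusted p = 1.81e-07). RNA of H6PD was thus higher and RNA of HSD11B2 lower in both coculture conditions of RPMI8226. These are RNA levels, and cortisol production was not tested. In MM.1S neither was tested, since HSD11B2 had means of 1.05, 0.817 and 0.808 in MONO, TSW and CO and H6PD did not exceed 0.203 in any library.

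**Figure D2:**
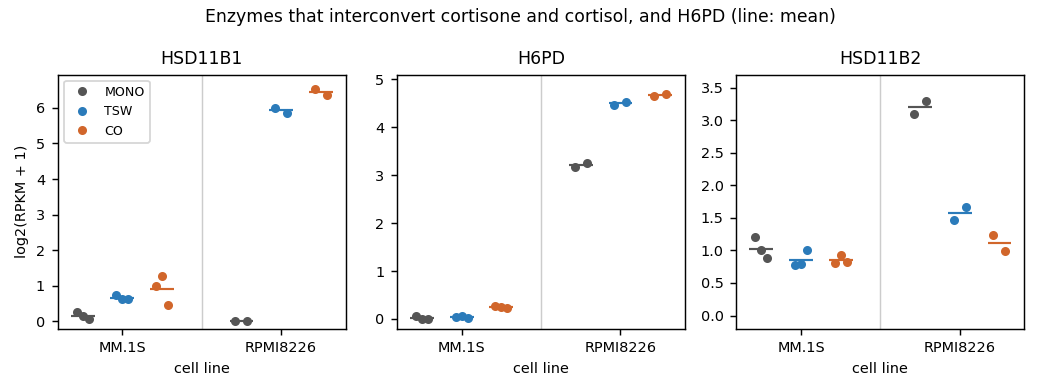
Log2(RPKM + 1) (vertical axis) of HSD11B1, H6PD and HSD11B2 in each library, grouped by cell line (horizontal axis), with points for libraries, lines for means and colors for MONO (grey), TSW (blue) and CO (orange). In RPMI8226, HSD11B1 went from 0 in MONO to 57.2 or more RPKM in TSW and CO, H6PD rose and HSD11B2 fell.

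A list of 25 genes of steroid metabolism held 9 tested genes in RPMI8226, of which 1 (H6PD) was higher and 3 were lower in both TSW and CO than in MONO, where 14.5% and 17.9% (TSW) and 16.4% and 22.9% (CO) of all tested genes were. The lower ones were HSD11B2, AKR1C3, a ketosteroid reductase, and HSD17B10, a mitochondrial dehydrogenase, with HSD17B10 falling by 0.67 ± 0.06 and 1.04 ± 0.06. The median of the 9 was -0.18 in TSW and -0.33 in CO, beside -0.08 and -0.09 over all tested genes. In MM.1S, 7 were tested with medians of 0.01 and -0.10, where 6.48% of all tested genes were higher and 4.16% lower in TSW and 7.13% and 4.65% in CO. The carbonyl reductase CBR1 was higher in TSW (0.62 ± 0.11), a call that was not made without MONO 3 or TSW 1, and SRD5A3, which acts in glycosylation, was lower in TSW (-0.79 ± 0.11) and CO (-0.65 ± 0.11), in CO not without MONO 1.

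The genes described here were searched for the glucocorticoid response element because several of the 6 target genes moved together. The letters searched were GNACA and, after 3 bases, TGTNC, its reverse complement, so both strands read the same. The windows and letters were set with the data known, and a match is a description of the sequence. Promoter sequences of RefSeq (GRCh38.p14), from 250 bases before to 50 after a start, were at hand for 7 of the 8 genes, with 19 start sites. No window of the 7 genes held the element, which was in 137 of 35116 promoters (0.390%). Within 2000 bases of a start it was found at 6 of the 19 starts, of SGK1, TSC22D3 and FKBP5, and at 4.94% of all 35116 starts. Within 5000 bases it was also found at PER1, in 7 of the 19 windows against 12.3% of all. Windows of the same gene can overlap and share a match, so they are not independent. The genes were chosen as known targets of the receptor, so nothing is read from these shares. The matches nearest to these starts are shown because these are the genes whose levels are described next, with 8 bases on either side, 5′ to 3′ on the minus strand of GRCh38, and with the match in capitals.
SGK1 element, in an intron, at -1165 from a start, chr6:134176017-134176045, minus strand: tgcggaacGGACAAAATGTTCtcagagat
TSC22D3 element, in a UTR exon, 415 bases after a start, chrX:107716079-107716107, minus strand: ggatctggGGACAAACTGTCCggaactct
FKBP5 element, in an intron, 463 bases after a start, chr6:35728106-35728134, minus strand: cccgctcgGGACATTGTGTTCcagccccg
FKBP5 element, in an intron, 1151 bases after a start, chr6:35687750-35687778, minus strand: gtggttcaGGACAGTGTGTTCagcgtttg
PER1 element, in an intron of a GENCODE transcript, at -2063 from the start, chr17:8154453-8154481, minus strand: agccaagaGAACATGATGTTCccaagtgc

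SGK1 (chr6:134169256-134318112), a kinase that regulates ion channels and transporters and supports cell survival, had the highest level of the target genes in TSW and CO of both lines. In MM.1S its RPKM was 16.1, 22.7 and 22.8 in MONO, 185, 197 and 179.9 in TSW, and 161, 145 and 152 in CO. In RPMI8226 it was 2.19 and 3.03 in MONO, 167 and 157 in TSW, and 148 and 135 in CO. In both lines TSW was above CO and both were far above MONO, without overlap between any 2 conditions. Log2 fold changes in MM.1S were 3.14 ± 0.13 in TSW and 2.85 ± 0.13 in CO, a ratio of mean RPKM of 9.13 and 7.45, and both were called higher. In RPMI8226 they were 5.51 ± 0.11 and 5.31 ± 0.11, a ratio of 62.1 and 54.3, also called higher. Without MONO 1 the MM.1S values were 2.99 and 2.69.

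TSC22D3 (chrX:107713221-107775988), or GILZ, a leucine zipper protein that carries part of the anti-inflammatory action of glucocorticoids, was likewise higher in both lines. Its RPKM in MM.1S was 11.4, 12.7 and 9.48 in MONO, 26.3, 28.5 and 24.9 in TSW, and 23.2, 28.6 and 24.1 in CO. In RPMI8226 it was 1.75 and 2.10 in MONO, 14.5 and 13.0 in TSW, and 14.3 and 15.7 in CO. TSW and CO overlapped in both lines, and neither overlapped with MONO. The log2 fold changes were 1.18 ± 0.12 and 1.11 ± 0.12 in MM.1S and 2.34 ± 0.10 and 2.45 ± 0.10 in RPMI8226, for TSW and CO, all called higher.

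KLF9 (chr9:70384604-70414657) encodes a zinc finger transcription factor that is induced directly by the receptor. In MM.1S its RPKM was 1.15, 1.95 and 2.04 in MONO, 4.62, 5.53 and 5.66 in TSW, and 4.89, 4.56 and 4.51 in CO. RPMI8226 had 3.39 and 3.31 in MONO, 13.84 and 12.5 in TSW, and 16.1 and 15.3 in CO. MONO was lowest in both lines, TSW and CO overlapped in MM.1S, and CO lay above TSW in RPMI8226. Its log2 fold changes were 1.22 ± 0.14 and 1.08 ± 0.14 in MM.1S and 1.70 ± 0.09 and 1.94 ± 0.09 in RPMI8226, all called higher, and 1.06 and 0.92 in MM.1S without MONO 1.

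PER1 (chr17:8140472-8152404), a repressor of the circadian clock that glucocorticoids induce, changed less. In MM.1S its RPKM was 3.69, 3.63 and 4.01 in MONO, 6.71, 6.70 and 5.66 in TSW, and 5.77, 5.98 and 5.72 in CO. In RPMI8226 it was 3.87 and 4.50 in MONO, 6.56 and 7.15 in TSW, and 6.11 and 6.34 in CO. All TSW and CO libraries were above all MONO libraries of their line. The log2 fold changes of PER1 in TSW were 0.62 ± 0.10 in MM.1S and 0.60 ± 0.10 in RPMI8226, both called higher. Those in CO were 0.51 ± 0.10 and 0.48 ± 0.10, not called and under 1.5-fold on the log2(RPKM + 1) scale, with ratios of mean RPKM of 1.54 and 1.49. As values near that threshold, the calls in TSW were not made in MM.1S with quantile normalization (0.55) or without TSW 1 (0.58), nor in RPMI8226 without MONO 1 (0.51) or TSW 2 (0.55). In CO of MM.1S a call was made with a pseudocount of 0.1 (0.61) and with voom (0.63).

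FKBP5 (chr6:35573590-35728583), an immunophilin that lowers the affinity of the receptor for hormone and is widely used as a readout of receptor activity, did not follow SGK1 and TSC22D3. In MM.1S its RPKM was 11.3, 16.8 and 15.9 in MONO, 16.4, 17.2 and 17.8 in TSW, and 16.7, 16.8 and 15.7 in CO. RPMI8226 had 19.99 and 19.3 in MONO, 11.96 and 12.8 in TSW, and 11.01 and 10.8 in CO. The conditions overlapped in MM.1S, where MONO 1 was the lowest, and in RPMI8226 every TSW and CO library was below both MONO libraries. Its log2 fold changes were 0.23 ± 0.13 and 0.17 ± 0.13 in MM.1S, not called, and 0.06 and 0.00 without MONO 1. In RPMI8226 they were -0.63 ± 0.08 and -0.79 ± 0.08, both called lower. The call in RPMI8226 TSW was not made with median-of-ratios scaling (-0.55), with quantile normalization (-0.58) or without TSW 1 (-0.58).

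ZBTB16 (chr11:114059711-114256770), or PLZF, a transcriptional repressor and a sensitive target of the receptor in many cell types, was at 0 in 14 of the 15 libraries. The exception was MM.1S CO 2 with 1 pair, an RPKM of 0.0240. A count of 0 allows up to 3 pairs, which is an RPKM of 0.0579 to 0.122 in these libraries. Apart from that 1 pair, no expression was detected at this depth, and the gene was not tested.

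**Figure D3:**
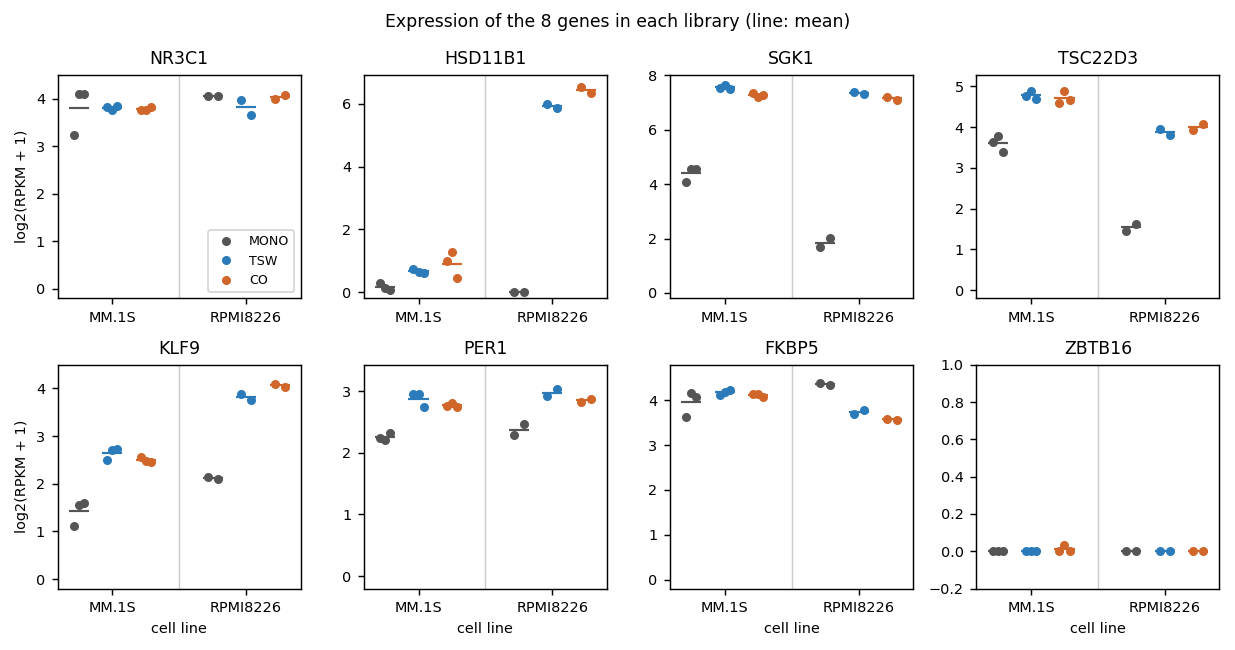
Log2(RPKM + 1) (vertical axes, each with its own range) of the 8 genes in every library of MM.1S and RPMI8226 (horizontal axis), with points for libraries, lines for means and colors for MONO (grey), TSW (blue) and CO (orange). SGK1, TSC22D3 and KLF9 were higher in every TSW and CO library than in MONO of both lines, FKBP5 was lower in RPMI8226, and ZBTB16 lay at or near 0.

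Of the 8 genes, 6 passed the expression filter in MM.1S, where HSD11B1 and ZBTB16 did not, and 7 in RPMI8226, where ZBTB16 did not. In MM.1S, 4 of the 6 (SGK1, TSC22D3, KLF9 and PER1) were called higher in TSW than in MONO, where 6.48% of all tested genes were higher and 4.16% lower. In CO, 3 of the 6 were called higher, where 7.13% of all tested genes were higher and 4.65% lower. No call was lower in MM.1S with limma or voom, and at an unadjusted p under 0.05 also 0 were lower. In RPMI8226, 5 of the 7 were called higher and 1 (FKBP5) lower in TSW, where 14.5% and 17.9% of all tested genes were. In CO of RPMI8226, 4 were called higher and 1 (FKBP5) lower, where 16.4% and 22.9% of all tested genes were. HSD11B1, with no pair in MONO, passed the filter in RPMI8226 through TSW and CO alone. The RPMI8226 counts of tested and higher genes are thus partly set by the filter. Since the genes were selected with these data known, nothing is read from these shares. TSW and CO are compared with the same MONO libraries. Levels of HSD11B1 differed between the lines, at 57.2 or more in RPMI8226 TSW and CO and at 1.42 or less in MM.1S, a difference that was not tested.

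**Figure D4:**
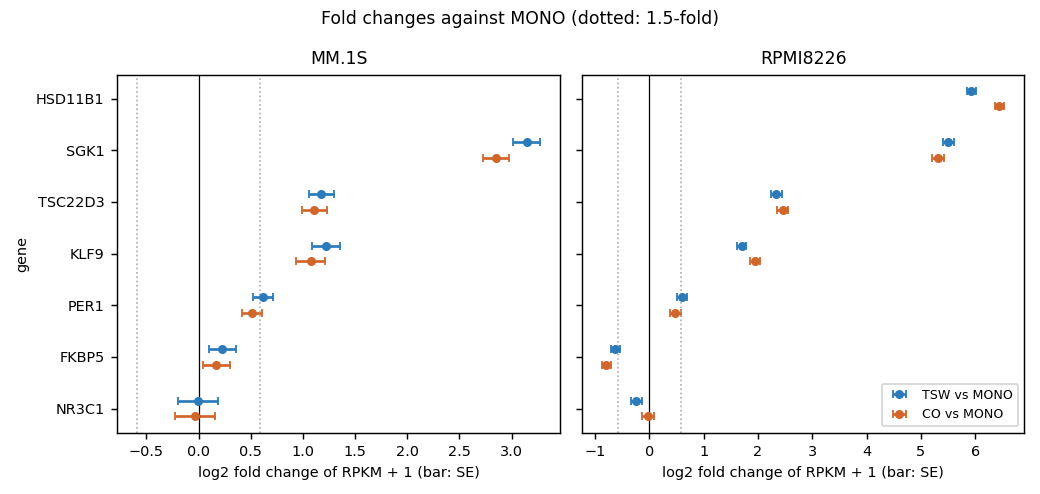
Log2 fold changes of RPKM + 1 against MONO (horizontal axes) for the tested genes (vertical axis) in MM.1S and RPMI8226, with TSW in blue, CO in orange, bars for the standard error and dotted lines at 1.5-fold. HSD11B1 (5.93 and 6.45) was at 0 in RPMI8226 MONO, so its values depend on the pseudocount. The gene passed the filter through TSW and CO alone. SGK1 lay at 5.51 and 5.31 in RPMI8226, and NR3C1 lay between -0.24 and -0.00 in both lines.

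CO and TSW differ in contact with HS5 cells, and also in the stromal RNA of CO and, in RPMI8226, in the RPS14P3 and trnN pattern of TSW. Between CO and TSW, limma called 0 of the 6 tested genes in MM.1S, where 0.414% of all tested genes were called in either direction, and 0 of the 7 in RPMI8226, where 4.29% were. At an unadjusted p under 0.05 there was 1 in MM.1S and 2 in RPMI8226, and voom called 0 in both. In MM.1S the log2 fold change of SGK1 was -0.29 ± 0.13, and those of the other 5 lay between -0.15 and -0.03. In RPMI8226 HSD11B1 had a log2 fold change of 0.52 ± 0.09, a ratio of 1.44, with both CO libraries above both TSW libraries. This is just under 1.5-fold, and HSD11B1 was called with quantile normalization (0.61), without TSW 1 (0.59) and without CO 2 (0.60). In MM.1S the ratio of HSD11B1 pairs in CO over TSW was 1.62 (95% exact interval 1.07 to 2.46), which pools unequal libraries, since CO 3 (0.370) lay below and CO 1 and CO 2 above every TSW library.

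Outside the 8 genes, a list of 55 genes known to be induced by glucocorticoids in various tissues was described in the same way, although many of its genes also respond to other signals. In MM.1S, 34 were tested, and 13 were called higher and 5 lower in TSW (6.48% and 4.16% of all tested genes), with 13 higher and 4 lower in CO (7.13% and 4.65%). Their log2 fold changes had a median of 0.30 in TSW and 0.41 in CO, beside 0.01 and 0.01 over all tested genes. In RPMI8226, 36 were tested, with 15 higher and 7 lower in TSW (14.5% and 17.9% of all) and 16 higher and 7 lower in CO (16.4% and 22.9%), and medians of 0.36 and 0.54 beside -0.08 and -0.09. Without MONO 1 of MM.1S, 13 were higher in both comparisons, and without MONO 2, 15 and 14 were.

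DDIT4 (REDD1), an inhibitor of mTORC1, had the largest value of the list in RPMI8226, rising from an RPKM of 39.9 and 43.3 in MONO to 458 and 428 in TSW and 428 and 433 in CO. In MM.1S it rose from 18.6, 20.4 and 15.5 to 128, 114 and 119 in TSW and 138, 172 and 167 in CO. The log2 fold changes of DDIT4 were 2.67 ± 0.12 and 3.06 ± 0.12 in MM.1S and 3.38 ± 0.07 and 3.34 ± 0.07 in RPMI8226. TXNIP, an inhibitor of thioredoxin and of glucose uptake, had log2 fold changes of 1.11 ± 0.09 and 1.22 ± 0.09 in MM.1S and 2.58 ± 0.09 and 3.15 ± 0.09 in RPMI8226, all higher. BIRC3, an inhibitor of apoptosis, was higher by 1.10 ± 0.14 and 1.30 ± 0.14 in MM.1S and 2.10 ± 0.12 and 2.77 ± 0.12 in RPMI8226. PIK3IP1, an inhibitor of PI3K, was higher in RPMI8226 (2.57 ± 0.12 and 2.86 ± 0.12) and was not called in MM.1S (0.16 ± 0.13 and 0.26 ± 0.13). The phosphatase gene DUSP1 was higher in RPMI8226 by 0.69 ± 0.10 and 0.74 ± 0.10 and was not called in MM.1S. BCL2L11 (BIM), a mediator of glucocorticoid-induced death of lymphoid cells, was called in neither line, with log2 fold changes of 0.32 ± 0.11 and 0.48 ± 0.11 in MM.1S and -0.32 ± 0.09 and 0.10 ± 0.09 in RPMI8226.

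Other genes of the list went down. CDKN1C and CXCR4 were called lower in TSW and CO of both lines. The CDKN1C call in MM.1S TSW was not made without TSW 3 (-0.57). The CXCR4 call in RPMI8226 CO was not made with median-of-ratios scaling (-0.53), quantile normalization (-0.51) or without MONO 2 (-0.56). The clock gene PER2, also a known target, was lower in RPMI8226 by -0.69 ± 0.10 and -0.86 ± 0.10 and was not called in MM.1S. Between CO and TSW, 1 gene of the list was called higher in MM.1S (MT2A), where 0.374% of all tested genes were, and 3 in RPMI8226 (MT2A, ANXA1 and BIRC3), where 1.90% were. The metallothionein gene MT2A, named after its values were seen, was below MONO in TSW and above it in CO, with mean RPKM of 2.62, 0.850 and 13.6 in MONO, TSW and CO of MM.1S. In RPMI8226 its means were 3.06, 0.393 and 12.95. The log2 fold change of MT2A in MM.1S TSW was -0.94, called lower. That call was not made with voom (-1.50), with no filter or with only the 2 conditions compared (-0.94 in both). It was also not made without TSW 1 (-0.72) or TSW 2 (-0.99). Near-identical metallothionein genes can share reads with MT2A, and stromal RNA was present in the CO libraries in which MT2A was high. The CO vs TSW call of BIRC3 was not made without TSW 2 (0.50) or CO 1 (0.58).

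**Figure D5:**
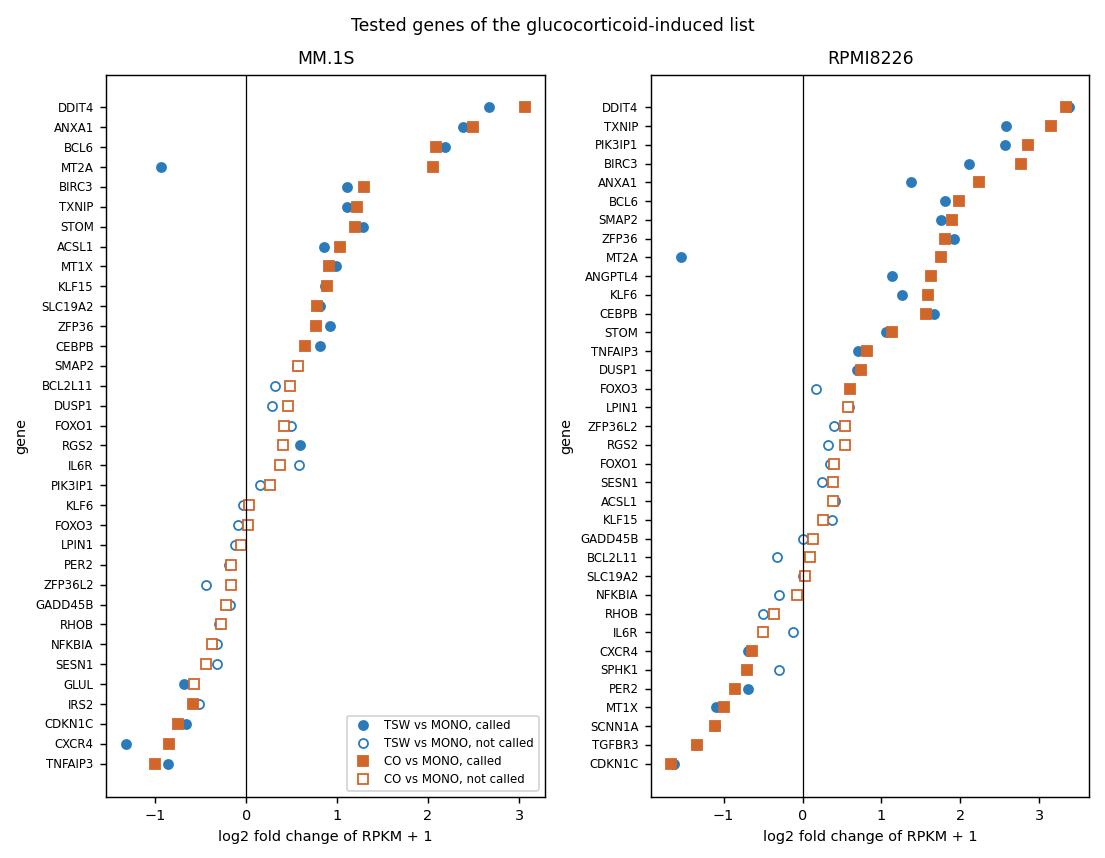
Log2 fold changes of RPKM + 1 against MONO (horizontal axes) for each tested gene of the glucocorticoid-induced list (vertical axes), 34 in MM.1S and 36 in RPMI8226, with circles for TSW, squares for CO and filled symbols for genes called by limma. DDIT4 lay at the top in both lines, CDKN1C and CXCR4 were called lower in both lines, and PER2 was called lower in RPMI8226.

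Genes that glucocorticoids repress, mostly cytokines and proteases, were described from a list of 27. In TSW vs MONO, 3 of the 14 tested in MM.1S were higher and 3 lower, and 6 of the 17 tested in RPMI8226 were higher and 2 lower. Of all tested genes 6.48% and 4.16% were in MM.1S and 14.5% and 17.9% in RPMI8226. The medians were 0.00 and 0.05, beside 0.01 and -0.08 over all tested genes. In CO vs MONO, 7 were higher and 2 lower in MM.1S (7.13% and 4.65% of all), and 13 were higher and 2 lower in RPMI8226 (16.4% and 22.9%). The CO medians were 1.31 and 2.18, or 2.35 in RPMI8226 with genes at 0 in MONO at their lower bounds, beside 0.01 and -0.09. Between CO and TSW, 5 were higher and 1 lower in MM.1S, and 8 were higher in RPMI8226, where 0.374% and 1.90% of all tested genes were higher. The lower gene, CCL3, was 1 of 4 called lower among the 10153 tested in MM.1S. Genes with no pair in MONO and TSW, such as MMP1, passed the expression filter through CO alone, so the CO counts and medians of this list are partly set by the filter. CXCL8 (interleukin 8) had no pair in MONO and TSW of MM.1S and a mean RPKM of 23.7 ± 1.499 (SD, n = 3) in CO. RPMI8226 means of CXCL8 were 0.103 for MONO, 3.54 for TSW and 55.3 for CO. IL6 had means of 0.0412, 0.0111 and 2.63 in MM.1S, and in RPMI8226 it was at 0 in MONO and TSW and at 6.34 ± 0.135 (SD, n = 2) in CO. MMP1, MMP3 and IL1B were likewise high in CO, with means of 44.2, 10.9 and 11.1 in MM.1S and 44.2, 12.3 and 15.95 in RPMI8226. MMP1, MMP3 and CXCL8 are themselves among the stromal markers summed above, and the part of stromal RNA in these increases was not tested.

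Clock genes were described because PER1 and the receptor are tied to daily rhythms. Of the 15 tested in MM.1S, 4 (NR1D1, NR1D2, DBP and BHLHE40) were higher and 1 (NFIL3) lower in both TSW and CO, with medians of 0.19 and 0.00. NR1D2 was not called with quantile normalization (0.55 in both) or without MONO 1 (0.48 in both). Of the 14 tested in RPMI8226, 1 was higher and 1 lower in TSW, and 2 were higher and 2 lower in CO, with medians of 0.22 and 0.24. The higher ones became 3 in TSW with voom or without TSW 1, 2 in TSW with either other scaling, and 4 in CO with quantile normalization. The lower ones in CO became 1 without MONO 2 or with median-of-ratios scaling, and 3 without CO 2 or with voom. Of all tested genes 14.5% were higher and 17.9% lower in TSW and 16.4% and 22.9% in CO of RPMI8226, and 6.48% and 4.16% and 7.13% and 4.65% in MM.1S. BHLHE40, a repressor of clock genes, rose from a mean RPKM of 5.67 to 35.7 and 37.5 in MM.1S and from 7.80 to 77.5 and 78.3 in RPMI8226. Its log2 fold changes were 2.46 ± 0.09 and 2.53 ± 0.09 in MM.1S and 3.16 ± 0.07 and 3.17 ± 0.07 in RPMI8226. NR1D1 (REV-ERB alpha), a nuclear receptor that represses the clock, was higher by 1.03 ± 0.09 and 0.93 ± 0.09 in MM.1S, and in RPMI8226 it had 0.57 ± 0.10 in TSW, not called, and 0.69 ± 0.10 in CO. PER3 had a mean RPKM of 0.0866 or less in all conditions. The E-box CACGTG, through which the clock activates PER1 and which reads the same on both strands, was in 2548 of 35116 promoters (7.26%) and in 2 of the 19 windows, of PER1 and FKBP5. The C/EBP site TTGCNNAA, also searched, was in 3673 promoters (10.5%) and in 3 of the 19 windows, of NR3C1, PER1 and SGK1. The PER1 window is shown with the E-box in capitals because PER1 and NR1D1 went up together in MM.1S TSW.
PER1 promoter, RefSeq, GRCh38.p14, chr17:8152355-8152654, minus strand: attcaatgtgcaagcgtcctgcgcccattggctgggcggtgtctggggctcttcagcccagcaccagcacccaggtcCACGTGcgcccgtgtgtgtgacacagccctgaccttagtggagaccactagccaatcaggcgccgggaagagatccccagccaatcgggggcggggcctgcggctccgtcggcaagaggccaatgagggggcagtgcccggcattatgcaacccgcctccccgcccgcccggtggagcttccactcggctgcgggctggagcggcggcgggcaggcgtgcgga

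The genes with the pattern most like that of 5 members over the 9 MM.1S libraries were named by Pearson's r of log2(RPKM + 1), as a description. These libraries fall into 3 conditions, so any gene with a like step between MONO and coculture reaches a high r. For SGK1 they were CLEC7A (0.999), STOM (0.998) and alpk1 (0.998). For TSC22D3 they were FLOT1 (0.993), CTH (0.990) and ARIH2 (0.990). PER1 was most like NR1D1 (0.987), HBEGF (0.986) and SPP1 (0.985). The patterns of NR3C1 and FKBP5, in which MONO 1 stands apart, were most like those of NNT (0.994), SP3 (0.992) and DIDO1 (0.986) and of TACC1 (0.989), TRIM25 (0.977) and NUP155 (0.972), respectively. STOM is also on the list of glucocorticoid-induced genes.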

How the data were processed

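The authors aligned paired-end reads of 15 libraries to hg38 with Subread, summarized them on RefSeq genes with featureCounts and deposited log2 values. The deposited unit is log2(RPKM + 1) with 0.0001 added to each value, and the offset was subtracted here; the design written beforehand had assumed RPKM. Whole read pairs were worked out from the value spacing, and of nonzero values 100% came within 0.05 of an integer. Pairs served for depth, floors, ratios and voom. Limma 3.58.1 in R 4.3.3 (eBayes with a trend) was fitted to each line with no covariate, and the procedure was tested on simulated data. Tables, intervals and figures were made with Python 3.11.15, numpy 2.4.6, pandas 2.3.3, scipy 1.17.1 and matplotlib 3.10.9. The members and the lists (receptor machinery, steroid metabolism, induced and repressed targets, clock, family paralogs, SGK1 kinase axis, stromal and myeloma markers) were chosen with earlier results of these data known. Genes named were the 8 members, up to 4 called genes with the largest log2 fold change against MONO per list, 18 genes fixed by name and the 3 genes most correlated with a member, given for 5 members; others are called genes of the lists. Alternatives were voom, a replicate block, no filter, quantile normalization, no fold threshold, only the 2 conditions compared, median-of-ratios scaling, eBayes without a trend, a filter at 5 RPKM, a pseudocount of 0.1 and each library left out.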

Additional observations from a re-analysis of the deposited data

Results flagged for a closer look

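Among the members and the other genes named by the fixed rule, 5 genes separated in opposite directions in the 2 lines, with every library of a coculture condition on one side of all MONO libraries in MM.1S and on the other side in RPMI8226. AKR1C3, a ketosteroid reductase, had log2 fold changes of 0.56 in TSW and 0.49 in CO of MM.1S, not called, and of -1.22 and -1.11 in RPMI8226, both called lower. NFIL3, a clock-controlled repressor, had -0.71 in TSW and -0.95 in CO of MM.1S, both called lower, and 0.38 and 0.20 in RPMI8226, not called. KLF2, a relative of KLF9, had -1.38 in TSW of MM.1S, called lower, and 0.40 in TSW of RPMI8226, not called. BCL2L11 had 0.32 in TSW of MM.1S and -0.32 in TSW of RPMI8226, and TSC22D1 had -0.32 in CO of MM.1S and 0.20 in CO of RPMI8226, none of them called. Of the other listed genes, 5 were called in opposite directions in the 2 lines. In MM.1S and RPMI8226, respectively, the TSW values were 0.98 and -1.09 for MT1X, -0.86 and 0.71 for TNFAIP3, -2.46 and 1.61 for CCL5, and -0.85 and 0.80 for JCHAIN. The CO values were 0.91 and -0.99 for MT1X, -0.9997 and 0.82 for TNFAIP3, -2.68 and 1.66 for CCL5, -0.91 and 1.02 for JCHAIN, and 2.27 and -0.99 for FN1. The differences between the lines were not tested.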

How the results depend on the processing

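Among alternative values of the members, 572 kept a call or, if not called, moved by less than the spread between replicates, 7 lost a call, 5 gained one, 13 moved by more than that spread without a call, and no called value changed sign. The log2 fold change of HSD11B1 in RPMI8226 depends on the pseudocount and was 11.84 in CO with voom, because MONO was at 0; in MM.1S it had no tested value to compare. Of 210 alternative counts, 200 stayed within 1.5 times. Without a fold threshold, limma called 2769 genes of MM.1S between TSW and MONO and 3175 between CO and MONO, in place of 1080 and 1196, and 6921, 7422 and 2849 in TSW vs MONO, CO vs MONO and CO vs TSW of RPMI8226, in place of 3352, 4056 and 443, with 8 in place of 3 induced genes higher in the last. The 42 genes of MM.1S CO vs TSW became 134 with no filter and 7 at a mean RPKM of at least 5, where more or fewer genes were tested. In RPMI8226 CO vs TSW, voom called 672, and leaving out each library gave 319 to 718, with 718 without TSW 1; the cause was not tested. Of the 443, 196 were higher and 247 lower, and with quantile normalization 249 were higher and 173 lower. Median-of-ratios scaling gave 231 and 198, and turned the balance of RPMI8226 in TSW vs MONO from 1500 higher and 1852 lower to 1710 and 1538, and in CO vs MONO from 1693 and 2363 to 1994 and 1925, so the shares over all genes depend on the scaling. Leaving out each library gave 966 to 1492 genes for TSW and 965 to 1696 for CO against MONO of MM.1S, the lowest without MONO 1. Where an RPMI8226 library is dropped, its condition has a single library, assumed to vary like the others. With the replicate block, 1081, 1209 and 40 genes were called in MM.1S and 3353, 4059 and 448 in RPMI8226 for TSW vs MONO, CO vs MONO and CO vs TSW, and the induced genes called higher were 13, 13 and 1 and 15, 16 and 3. Of the called list genes, NCOA2 (adjusted p = 0.0541) and MT2A (adjusted p = 0.0511) were not called with the block in TSW vs MONO of MM.1S. Deviations of same-numbered libraries had correlations of -0.38 to 0.286 in MM.1S, where a library correlated best with its own number in 6 of 6 cases between MONO and TSW, 0 of 6 between MONO and CO and 1 of 6 between CO and TSW. In RPMI8226 they were 0.164 to 0.271, all positive but from 2 replicates, too few to tell a pairing, and the labels name no shared batch, so the numbers were not treated as a pairing. Depth limits HSD11B1 in MM.1S and ZBTB16 in both lines.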

Other observations

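In MM.1S, 6.48% of all tested genes were higher and 4.16% lower in TSW, and 7.13% and 4.65% in CO. Of 36 relatives of the members, 26 were tested in MM.1S, with 2 higher (KLF3 and KLF13) and 1 lower (KLF2) in both TSW and CO, and without MONO 1 limma called 0 higher and 1 lower. In RPMI8226, 23 were tested, with 6 higher and 2 lower in TSW (14.5% and 17.9% of all) and 7 higher and 2 lower in CO (16.4% and 22.9%). KLF3 had log2 fold changes of 0.75 ± 0.08 and 1.40 ± 0.08 there, and KLF6 had 1.25 ± 0.08 and 1.59 ± 0.08. TSC22D1 was called in neither line, and SGK2 and SGK3, the relatives of SGK1, had mean RPKM of 0.0874 or less in every condition. Of 18 genes around the SGK1 kinase, 15 were tested in MM.1S, with 0 higher and 1 lower in TSW and 1 (RICTOR) higher in CO by limma. At an unadjusted p under 0.05, 4 were higher and 2 lower in each. The RICTOR call in MM.1S (0.76 ± 0.26) was not made without MONO 1 (0.38) or without any single TSW or CO library. The higher count was 2 in both comparisons without MONO 2 and 3 in both without MONO 3, and voom called 2 in TSW and 3 in CO. In RPMI8226, 16 were tested, with 2 higher and 3 lower in TSW (14.5% and 17.9% of all) and 3 higher and 5 lower in CO (16.4% and 22.9%). RICTOR, a subunit of the mTORC2 complex that activates SGK1, had 0.91 ± 0.09 and 1.39 ± 0.09 in RPMI8226, and NDRG1, a substrate of SGK1, had 0.83 ± 0.07 and 1.27 ± 0.07. In the same line SCNN1A was called lower in both TSW and CO, and MLST8 was called lower in CO.

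Markers of plasma cells were present in all libraries, with JCHAIN the most abundant. Of 15, 12 were tested in MM.1S, with 3 higher and 3 lower in TSW (6.48% and 4.16% of all) and 2 higher and 3 lower in CO (7.13% and 4.65%). In RPMI8226, 11 were tested, with 6 higher and 2 lower in both TSW (14.5% and 17.9%) and CO (16.4% and 22.9%). Without MONO 1 of MM.1S, 3 were higher and 2 lower in TSW, and 1 was higher and 2 lower in CO. TNFRSF17 (BCMA), a receptor for plasma cell survival factors, fell from a mean RPKM of 173 to 48.2 and 37.9 in MM.1S and from 70.9 to 5.42 and 4.05 in RPMI8226. The sorting marker CD38 was not called in MM.1S and rose from 16.0 to 45.8 and 52.95 in RPMI8226. Of the 40 stromal markers, 19 were tested in MM.1S and 15 in RPMI8226. In TSW vs MONO, 2 were lower in MM.1S, and 4 were without MONO 1, with quantile normalization or with voom, which also called 1 higher. In RPMI8226, 3 were higher and 1 lower. In CO vs MONO, 15 were higher and 2 lower in MM.1S (7.13% and 4.65% of all), and 13 were higher and 1 lower in RPMI8226 (16.4% and 22.9%). In CO vs TSW, 16 and 10 were higher (0.374% and 1.90%). Markers with no pair in MONO and TSW, such as COL1A2 and MMP1, were tested only because CO brought them over the filter.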
